A study of Homo sapiens with 2 samples.

Results

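The kinases and mediators of the DNA damage checkpoint that act upstream of p53 were examined in H1299 cells with and without p53. They were 8 genes, chosen by name: the apical kinases ATM and ATR, ATRIP, the partner protein of ATR, the effector kinases CHEK1 and CHEK2, the chromatin mediators TP53BP1 and MDC1, and HIPK2, a nuclear kinase of p53. Probe sets were taken where the platform's gene symbol was a member. This gave 7 of the 8 genes a probe set of their own, of 18417 genes measured in all. H1299, an established human line from a lung carcinoma of the non-small cell type, has no p53 of its own, so the study sets cells supplied with p53 against cells of a negative control. Total RNA was hybridised to 1 array per group, 2 arrays in all, and the values are log2 intensities. The sources used here do not give the way p53 was supplied, its duration, the nature of the negative control, any damaging agent or whether a clone or a pool of cells was used. With 1 array per group there is no replicate error and no test, and every difference describes these 2 arrays.

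In the checkpoint, ATM is activated at double-strand breaks and ATR, held by ATRIP on single-stranded DNA coated with replication protein A, at stalled forks. MDC1 binds the phosphorylated histone H2AX beside a break and holds ATM and the ubiquitin ligases there, and TP53BP1 is recruited to the marked chromatin and steers repair toward end joining. CHEK2 carries the signal mainly from ATM and CHEK1 mainly from ATR, and both restrain the CDC25 phosphatases, while HIPK2 phosphorylates p53 in the response to severe damage. These proteins are controlled largely by phosphorylation, which the arrays do not read.

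The sequences just before the start sites of MDC1 and CHEK1 are shown because these were the members with the largest differences, and a short stretch before a start site of ATM is shown because it shares a motif with MDC1 while its difference was much smaller. All come from RefSeq on GRCh38.p14 and are written 5′ to 3′ on the strand of the gene, ending at the base before the start. Capitals mark the CHR element TTTGAA, a motif of cell cycle genes bound by the DREAM and MuvB complexes, and the CCAAT box, bound by NF-Y, which reads ATTGG where it lies on the opposite strand. The MDC1 stretch is chr6:30717282-30717531 on the minus strand, that of CHEK1 is chr11:125626106-125626355 on the plus strand, and that of ATM is chr11:108223007-108223066 on the plus strand.
MDC1: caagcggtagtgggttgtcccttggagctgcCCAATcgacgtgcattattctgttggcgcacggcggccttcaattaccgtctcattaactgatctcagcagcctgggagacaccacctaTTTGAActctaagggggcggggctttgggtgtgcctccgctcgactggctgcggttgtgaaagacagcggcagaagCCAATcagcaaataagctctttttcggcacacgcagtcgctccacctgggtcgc
CHEK1: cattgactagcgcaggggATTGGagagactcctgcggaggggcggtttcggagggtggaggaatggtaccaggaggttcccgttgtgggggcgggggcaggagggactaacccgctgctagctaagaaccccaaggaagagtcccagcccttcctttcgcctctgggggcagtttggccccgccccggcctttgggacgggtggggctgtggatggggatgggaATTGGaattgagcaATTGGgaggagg
ATM: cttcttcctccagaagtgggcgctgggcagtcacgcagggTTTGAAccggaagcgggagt

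The MDC1 stretch held 1 TTTGAA, beginning 130 bases before the start, and 2 CCAAT boxes at 219 and 54 bases before it. The CHEK1 stretch held 3 CCAAT boxes on the opposite strand, at 232, 26 and 12 bases before the start, and no TTTGAA. CHEK1 has 3 starts in the table and ATM has 2; the printed stretches belong to the start of CHEK1 that lies farthest along the chromosome and to the first of ATM, where TTTGAA begins 20 bases before the start. Windows of 300 bases, with 250 before and 50 after a start, were searched on both strands for 7 motifs. Of 35116 such windows, 15.2% held TTTGAA and 34.6% held CCAAT. Of the 11 windows of 7 members, 2 held TTTGAA (MDC1 and 1 of ATM) and 10 held CCAAT, the exception being ATR. By member, 6 of 7 held CCAAT. The windows are not independent, since those of CHEK1 overlap and all hold the same CCAAT box, and those of ATM overlap too. HIPK2 was not searched. The variant TTCGAA, the E2F elements TTTCCCGC, TTTGGCGC and TTCCCGCC and the p53 half-site, present in 1.45%, 1.63%, 0.652%, 3.16% and 6.63% of all windows, were not matched in these 11. A match describes letters and not a bound site, and TTTGAA occurred in a member with a large difference and in a member with a small difference.

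MDC1 and CHEK1 were the members at least 2-fold lower with p53, and none was at least 2-fold higher. Of the 7 measured members 6 had lower values with p53, and CHEK2 stood slightly higher. The median difference (log2 with p53 minus log2 in the negative control) was -0.52, against -0.01 over the 11436 genes kept because the brighter of their 2 values reached 7.38, the median of all probe sets. All 7 members lay above that level in both arrays. At least 2-fold lower were 2 of 7 members and 5.79% of the kept genes, and at least 2-fold higher were 0 of 7 members and 8.21% of the kept genes. At 1.5-fold, TP53BP1 joined the lower members to make 3 of 7, against a background of 15.5%, and 0 of 7 were higher, against 14.4%. Of all kept genes 50.6% had a lower value with p53, 34.8% a higher one and 14.6% exactly the same one, so lower values were also the more frequent in general. In RNA from whole cultures, fewer cells that express a gene and less of its RNA per cell cannot be told apart.

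**Figure D1:**
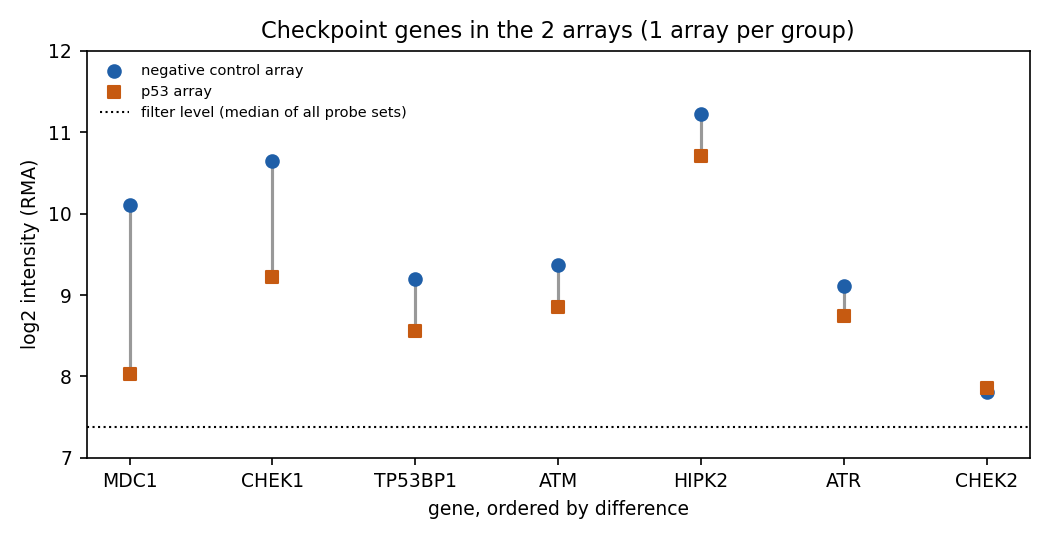
Log2 intensity of the 7 measured checkpoint genes in the negative control array (circles) and the p53 array (squares), 1 array per group, with the filter level of 7.38 dotted. MDC1 spans from 10.11 to 8.03 and CHEK1 from 10.65 to 9.22, whereas the values of CHEK2 nearly coincide.

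Among the apical kinases, ATM read 8.85 on the log2 scale with p53 and 9.37 in the negative control. This is a difference of -0.52, or 69.9% of the control intensity. ATR stood at 8.74 with p53 and 9.11 in the negative control, a difference of -0.37, or 77.5% of the control. Both kinases were thus lower by less than 1.5-fold, and 18.0% of the kept genes had a difference as low as that of ATM or lower, 25.1% for ATR. ATRIP has no value of its own, because its only probe set also carries the symbol of TREX1, a DNA exonuclease gene that overlaps it. That shared probe set read 7.58 with p53 and 7.72 in the negative control, a difference of -0.14 that cannot be assigned to either gene.

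The effector kinases stood apart from each other. CHEK1 read 9.22 on the log2 scale with p53 and 10.65 in the negative control, a difference of -1.43, which is a 2.69-fold lower level, or 37.1% of the control. Of the 11436 kept genes 237, or 2.07%, were as low or lower. CHEK2 had 7.86 with p53 and 7.80 in the negative control, a difference of 0.05, or 104% of the control. CHEK2 was also the member nearest to the filter level. Levels are not set against each other between genes, since each probe set has its own brightness.

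Among the chromatin mediators, MDC1 stood at 8.03 with p53 and 10.11 in the negative control. Its difference of -2.08 is a 4.24-fold lower level, or 23.6% of the control, and 67 kept genes (0.586%) were as low or lower. The platform lists MDC1 under 2 probe sets, which held identical values in each array and were counted as 1 measurement. TP53BP1 stood at 8.56 with p53 and 9.20 in the negative control, a difference of -0.64, or 64.0% of the control, and 13.4% of the kept genes were as low or lower. HIPK2 stood at 10.71 with p53 and 11.23 in the negative control, a difference of -0.52, or 69.9% of the control. HIPK2 and ATM thus had nearly the same difference, and both lay 0.48 short of the 2-fold threshold.

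**Figure D2:**
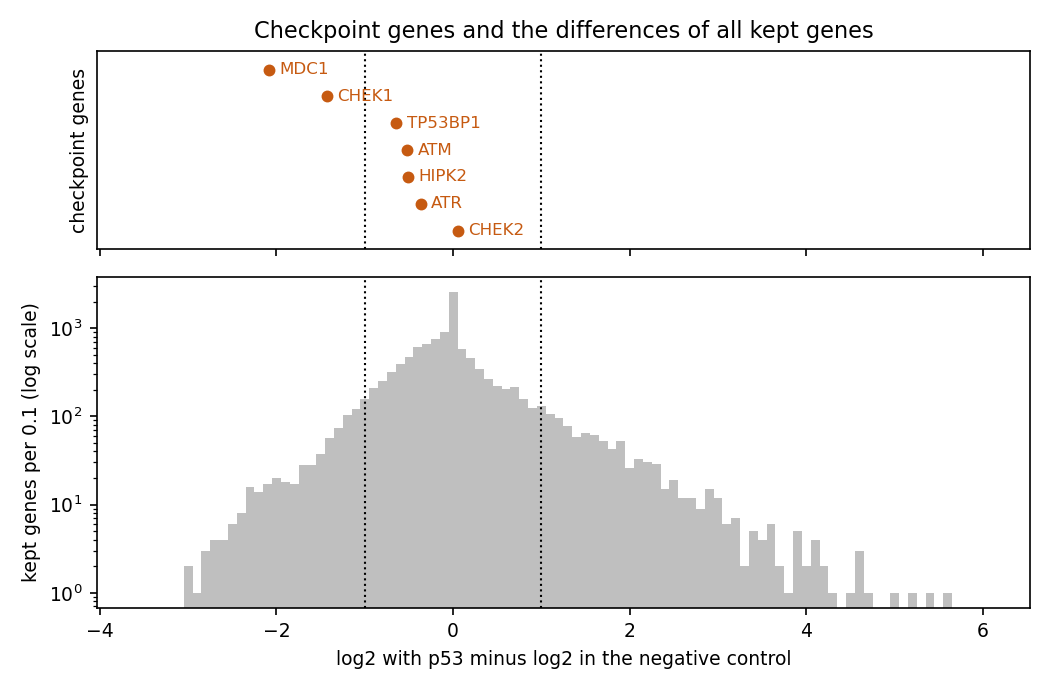
Difference (log2 with p53 minus log2 in the negative control) of the 7 checkpoint genes (upper panel) above the number of kept genes per 0.1 of difference (lower panel, log scale), with the 2-fold thresholds dotted. MDC1 and CHEK1 lie beyond the lower threshold, the others between the thresholds.

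The order from the lowest difference was MDC1, CHEK1, TP53BP1, ATM, HIPK2, ATR and CHEK2. No replicate shows which neighbours in this order differ. As a scale from the arrays themselves, the spread between different probe sets of the same gene was 0.12 (a robust standard deviation, from median absolute deviations over 334 genes), which holds no variation between cultures. TP53BP1, ATM, HIPK2 and ATR lay within 0.28 of each other, and the steps from TP53BP1 to CHEK1 and from CHEK1 to MDC1 were 0.79 and 0.65.

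The label was checked on genes that p53 is known to induce and on cell type markers. CDKN1A, the p21 inhibitor gene, stood at 12.66 with p53 and 9.18 in the negative control, and MDM2, the p53 ubiquitin ligase gene, at 13.59 and 10.87. All 7 measured genes of this check list were at least 2-fold higher, beside 8.21% of all kept genes. Of 8 markers listed for H1299 and lung carcinoma lines, the keratin and vimentin genes KRT8, KRT18 and VIM were between 12.47 and 13.07 in both arrays. The other 5 of this list, KRT19, EPCAM, CDH1, NKX2-1 and SFTPB, were all below the filter level and equal in both arrays. All 4 measured haematopoietic markers were below it too, at 4.39 to 6.74, and 5 of 6 fibroblast and endothelial markers, with COL1A1 at 8.14 in both arrays.

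The other genes of the pathway were read from 8 lists. On the ATR side the lower values of CHEK1 were shared by several genes. Of 13 genes of ATR activation, the RAD9A-RAD1-HUS1 clamp and replication protein A, 12 were kept. At least 2-fold lower were 6 of these 12, against 5.79% of all kept genes. At least 2-fold higher were 0, beside 8.21% of all kept genes, and the median difference was -0.74. With the stricter filter at the 75th percentile the median was -1.23 and 5 were lower, beside 476 of all 6116 genes kept there. That filter removed HUS1, RAD17, RAD9A and RPA3, which were neither higher nor lower, and RPA2, which was lower. The median thus rests on fewer genes, since mostly genes between the thresholds were lost. CLSPN, which encodes claspin, the adaptor through which ATR phosphorylates CHEK1, stood at 6.82 with p53 and 9.33 in the negative control, a difference of -2.51. TOPBP1, the activator of ATR, stood at 9.57 and 11.10 (-1.53), and TIMELESS and TIPIN, partners in fork protection, had differences of -1.27 and -1.23. The other lower genes, named after their values were seen, were RPA2 (-1.22), a subunit of replication protein A, and RAD1 (-1.05), which was less than 2-fold lower with the lowess trend removed (-0.98) or an offset added (-0.98). CLSPN and RPA2 passed the filter through the negative control array alone.

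On the ATM side most genes lay between the thresholds. All 13 genes of break sensing and ubiquitin signalling were kept, at a median difference of -0.21. The 2-fold rule found 1 lower gene (7.69%) and 0 higher, near the background of 5.79% lower and 8.21% higher. The lower gene was H2AX, which encodes the histone that MDC1 reads when phosphorylated, at 9.61 with p53 and 10.76 in the negative control (-1.15). The nuclease gene MRE11 had a difference of 0.69, NBN, of the same complex, -0.65, and the deubiquitinase gene BRCC3 -0.67. The 11 measured TP53BP1 partners had a median difference of -0.14. By 2-fold, 1 (9.09%) was lower and 0 were higher, again near the 5.79% and 8.21% of all kept genes. The lower partner was RIF1, the end-joining effector, at 9.56 and 10.59 (-1.03), which fell short of 2-fold with the trend removed (-0.93) or the offset added (-0.9986). The deubiquitinase gene USP28, at -0.9983, fell just short of the threshold, PAGR1 had -0.67 and the shieldin gene SHLD2 0.54.

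**Figure D3:**
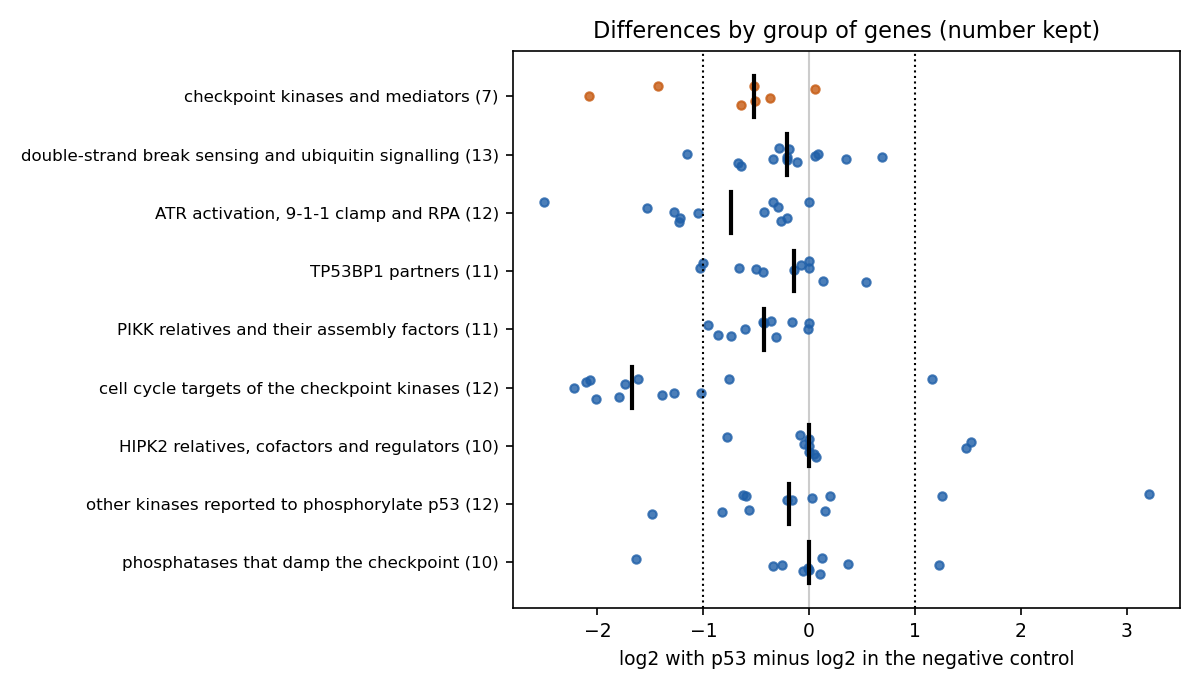
Difference (log2 with p53 minus log2 in the negative control) of each kept gene in the checkpoint set and in 8 lists of related genes, with the median as a bar, the number kept in brackets and the 2-fold thresholds dotted. The cell cycle targets and the ATR activation list lie farthest to the left, with medians of -1.68 and -0.74.

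The relatives of ATM and ATR, the PIKK family of large kinases, with their assembly factors, all lay between the thresholds. By 2-fold, 0 of 11 were higher, beside 8.21% of all kept genes, and 0 were lower, beside 5.79%. Their median difference was -0.42. At 1.5-fold, 4 of 11 were lower and 0 higher, beside 15.5% and 14.4% of all kept genes. The largest differences were those of the assembly factor TTI1 (-0.96), PRKDC (-0.86), the DNA-dependent protein kinase gene, RUVBL1 (-0.73) and SMG1 (-0.60), a kinase of RNA surveillance. As with ATM and ATR themselves, most differences were below 0, in 10 of the 11, beside 50.6% of all kept genes.

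Downstream, the genes listed as cell cycle targets of the checkpoint kinases were mostly lower. The list is a broad one of cell cycle genes, and not all of them are direct substrates of CHEK1 or CHEK2. Of 12 genes, 10 were at least 2-fold lower, against 5.79% of all kept genes, and the median difference was -1.68. The 1 higher gene of 12 is near the 8.21% of all kept genes. CDK1, the mitotic kinase gene, stood at 7.66 with p53 and 9.88 in the negative control (-2.22), PLK1 at 9.59 and 11.69 (-2.11), AURKA at 9.08 and 11.16 (-2.07), and CCNA2 at 9.52 and 11.53 (-2.01). The phosphatase genes that CHEK1 and CHEK2 restrain, named after their values were seen, were also lower, with CDC25B at -1.79, CDC25C at -1.62 and CDC25A at -1.39. CDC25C passed the filter through the negative control array alone. The higher gene, again named with its value known, was WEE1, which encodes the kinase that opposes CDC25, at 11.05 and 9.89 (1.16). The lower values of genes expressed in dividing cells thus lay beside those of MDC1 and CHEK1, and their part in the result was not tested.

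The genes around HIPK2 lay mostly between the thresholds. Of 10 kept relatives, cofactors and regulators, 8 were neither, 0 were lower (5.79% of all kept genes) and 2 were at least 2-fold higher (8.21% of all kept genes). Their median was 0.00, which equal values hold there. Of the 11 measured genes 4 were equal in both arrays, and 1 of these lay below the filter level and outside the median. HIPK3, a paralogue of HIPK2, stood at 11.02 with p53 and 9.49 in the negative control (1.53), and PML, the scaffold gene of the nuclear bodies in which HIPK2 meets p53, at 10.16 and 8.68 (1.48). The chaperone gene DAXX had a difference of -0.78 and the ligase gene SIAH2 -0.09. Of 12 measured other kinases reported to phosphorylate p53, 2 were at least 2-fold higher and 1 lower (median difference -0.19), beside 8.21% and 5.79% of all kept genes. These were PLK3 (3.21), GSK3B (1.25) and VRK1 (-1.48), with PRKAA1 at -0.82.

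Among 10 genes of phosphatases, a deubiquitinase and their partner proteins, listed as damping the checkpoint, 1 was at least 2-fold higher and 1 lower. These counts were near the 8.21% and 5.79% of all kept genes, and the median difference was -0.01. PPM1D, which encodes the WIP1 phosphatase that reverses ATM phosphorylation, stood at 10.25 with p53 and 9.02 in the negative control (1.23). USP1, the deubiquitinase of the Fanconi pathway, stood at 7.71 and 9.35 (-1.64). PPP1CC and PPP2CA, catalytic subunits of general phosphatases, had differences of 0.37 and -0.34.

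The genes of these lists whose difference was nearest to that of MDC1, of 91 compared, were AURKA, PLK1 and CCNA2, at gaps of 0.01, 0.03 and 0.07. Those nearest to CHEK1 were CDC25A, VRK1 and TOPBP1, at gaps of 0.04, 0.05 and 0.10. Likeness here is the gap between differences over 2 arrays and says no more than that.

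**Figure D4:**
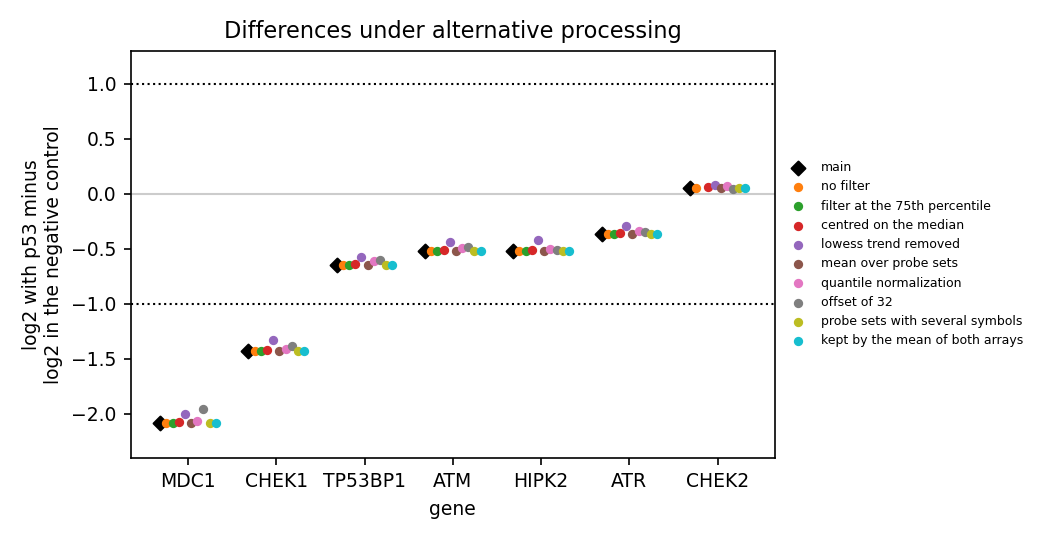
Difference (log2 with p53 minus log2 in the negative control) of the 7 checkpoint genes as reported (diamonds) and under 9 alternatives of filter, scaling and probe set choice (circles), with the 2-fold thresholds dotted. MDC1 lies between -2.08 and -1.96 and CHEK1 between -1.43 and -1.33. No gene crosses a threshold, and CHEK2 has no value under the stricter filter. Only centring, lowess, quantile normalization and the offset could move a value.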

How the data were processed

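Per the labels' protocols, Trizol-extracted total RNA was labelled with biotin by the Affymetrix procedure and read on 1 array per group. The deposited values are log2 intensities that the authors summarised with RMA (robust multi-array average), per the submitters' processing notes. The values themselves show the log2 scale; software version and genome build: not given in the sources used here. RMA equalises the arrays, so a change of total RNA per cell cannot be read. Exactly equal values in both arrays were held by 35.9% of the 33297 probe sets. Of these probe sets 19460 had 1 gene symbol, 1754 several and 12083 none in GEO's platform annotation. Symbols were updated through RefSeq, and a gene was read from its probe set with the highest mean. The 2-fold rule is one of size.

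Members, lists and thresholds were chosen with earlier results of these data known. The text names all members, CDKN1A and MDM2 with the markers, up to 4 kept genes per list with the largest absolute difference and the 3 genes nearest to each member past 2-fold. Other names are marked. Detection calls, protein sequences and the transcript of the supplied factor were not analysed here. Alternatives were no filter or the 75th percentile (9.01), 1.5-fold and 3-fold thresholds, centring, lowess (span 0.3), probe set means, quantile normalization, an offset of 32 and probe sets with several symbols. Python 3.11.15, numpy 2.4.6, pandas 2.3.3, statsmodels 0.14.6 and matplotlib 3.10.9 were used.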

Additional observations from a re-analysis of the deposited data

How the results depend on the processing

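At the 3-fold threshold 1 member was lower, MDC1, while 175 of all kept genes were lower and 450 higher. At 1.5-fold 1777 of all kept genes were lower and 1642 higher, against 662 and 939 at 2-fold. Every measured member kept its sign under the 11 alternatives that gave it a value, and the stricter filter at the 75th percentile removed CHEK2. Of 76 member values under these alternatives, 75 moved by no more than the spread between probe sets of 1 gene, 0.12. The exception was MDC1 at -1.96 with the offset of 32. Most of these values could not move, because filters, fold thresholds and probe set choice left each member's difference as it was. Only centring, lowess, quantile normalization and the offset could change a member's value, so the count says little about stability. Of 264 values of the 8 lists, 18 moved beyond the spread of 0.12 or by more than 1.5 times in a count. A reversal was counted only where the main difference was at least 2-fold, and none was found there. The median of the phosphatase list, -0.01, did change sign, for example to 0.05 with the stricter filter and 0.08 with the trend removed. CDK2, of the cell cycle target list and named after its value was seen, was less than 2-fold lower with the trend removed (-0.92) or with the offset (-0.99). Keeping genes by their mean over both arrays was chosen after seeing the data. It left 6 lower genes in the ATR activation list and 10 among the cell cycle targets, beside 630 of all 11103 genes kept that way. Each of these lists had 12 genes kept by the main filter. No paired analysis was possible because each group has 1 array, and the number of arrays limits the precision.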

Other observations

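Genes that lie next to the members on the chromosome, a comparison chosen after the data were seen, had differences in both directions. Beside MDC1, in the class I region of the major histocompatibility complex, NRM, a nuclear membrane protein gene, had a difference of -1.16, and TUBB, a beta tubulin gene, stood at 13.01 with p53 and 13.88 in the negative control (-0.88). FLOT1, beyond TUBB, had a difference of -0.70. Beside CHEK1, the oligosaccharyltransferase gene STT3A stood at 11.59 and 12.21 (-0.62), while EI24, known as a gene induced by p53, stood at 13.10 and 12.05 (1.05) on the far side of STT3A. NPAT, which encodes a coactivator of histone genes and shares a divergent promoter region with ATM, stood at 8.96 and 9.78 (-0.82). On the other side of ATM, the overlapping gene C11orf65 was higher with p53, at 7.47 and 6.64 (0.82). C11orf65 passed the filter level of 7.38 narrowly and through the p53 array alone. POGLUT3, beyond it, was lower, at 8.01 and 9.19 (-1.18). TUBGCP4, which overlaps the end of TP53BP1 and encodes a subunit of the gamma tubulin ring complex, stood at 9.31 and 10.12 (-0.81), and MAP1A, on the other side, had the same value in both arrays, below the filter level. HSCB, beside CHEK2, had a difference of -0.11, and CCDC117 beyond it 0.73. Of the neighbours of ATR, XRN1 was equal in both arrays, PLS1 had a difference of -0.59 and TRPC1, beyond PLS1, -0.93. Around HIPK2, PARP12 had a difference of -0.51 and KLRG2 0.17, and around ATRIP, TMA7 had 0.45 and CCDC51 -0.25. Not all neighbours of the members are named here.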
